A study of Rattus norvegicus with 6 samples.

Results

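Baseline expression of rat mammospheres, spheres of cells that grow from single mammary cells kept from attaching to a plate, was described from the 3 control arrays of a series of 6. The 3 were chosen by their titles, as Control 5, Control 6 and Control 7, and no measured value entered the choice. The donors were female Sprague Dawley rats that received phosphate buffered saline, the vehicle, into the peritoneum every day for 21 days from the age of 55 days. Mammary glands 4 and 5 were removed 21 days after the last injection. The 3 remaining arrays came from rats of the same sex, strain, age and schedule given recombinant human chorionic gonadotropin (hCG), a pregnancy hormone, at 100 IU per day. Cells enriched for epithelium were seeded at 25000 per ml in EpiCult-B medium with 10 ng/ml of epidermal growth factor (EGF), 10 ng/ml of basic fibroblast growth factor (bFGF) and 4 µg/ml of heparin, and spheres held back by a 40 µm strainer were taken after 7 days. Glands of 3 animals per group were used according to the study's design, but no label ties an array to an animal, so the spread between arrays may in part be technical. Other cell types of the gland were not stated to be removed.

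The mammary duct has an inner luminal layer, which makes milk and carries the sex hormone receptors, and an outer basal layer of contractile myoepithelial cells that rests on a basement membrane. Fibroblasts, vessels, fat and immune cells surround it. In suspension, cells that depend on anchorage tend to die, and EGF and bFGF in the medium stand in for growth signals that the stroma gives in the animal.

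Each array gave 1 log2 expression value for each of 31099 probe sets, after a labelling with 2 rounds of amplification. The brightest probe set of each of 14217 genes was used. Probe sets differ in how strongly they bind, so the order of genes below is an order of signal and not of transcript number. A gene was counted as above background where its mean over the 3 control arrays exceeded 3.53, the 95th percentile of 72 genes of retina, brain, liver, pancreas, testis and other organs, called here the off-tissue level. Of the 14217 genes, 9159 (64.4%) lay above it. A gene below it is dim and not shown to be absent. The off-tissue genes had a median of 1.97, and 4 of the 72 lay above the level themselves: the neuronal gene Snap25 at 6.04, the photoreceptor gene Rom1 at 4.02, Ttr at 3.81 and Ins1 at 3.62. Errors are SDs over the 3 control arrays throughout, and single arrays allow no test of the differences between them.

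The brightest genes of the control spheres were those of matrix, matrix breakdown, the cytoskeleton and translation. Mgp, the matrix Gla protein that holds back calcification, was the first with 13.04, 13.07 and 13.11 on Control 5, 6 and 7. Spp1, the secreted adhesive phosphoprotein osteopontin, followed with 12.63, 12.72 and 12.75, and Fn1, the fibronectin that integrins bind, with 12.61, 12.56 and 12.54. The 3 arrays lay within 0.12 of each other for each of these 3 genes. Dcn, the collagen-binding proteoglycan decorin, had a mean of 12.48 ± 0.11, and Col3a1, the fibrillar collagen of soft tissue, one of 12.02 ± 0.06. The metalloproteinase Mmp3 (stromelysin) stood at 12.15 ± 0.24 and its inhibitor Timp1 at 11.95 ± 0.02. Mmp14, which sits in the membrane and activates other metalloproteinases, had a mean of 11.82 ± 0.11, and the collagenase Mmp13 one of 11.63 ± 0.10. Gja1, the gap junction protein connexin, read 12.06 ± 0.09 and the intermediate filament gene Vim 11.72 ± 0.10. Among the 100 brightest genes, 28 encoded ribosomal proteins and 23 belonged to the matrix lists, which hold 124 measured genes. The dimmest of these 100 had a mean of 10.8.

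**Figure D1:**
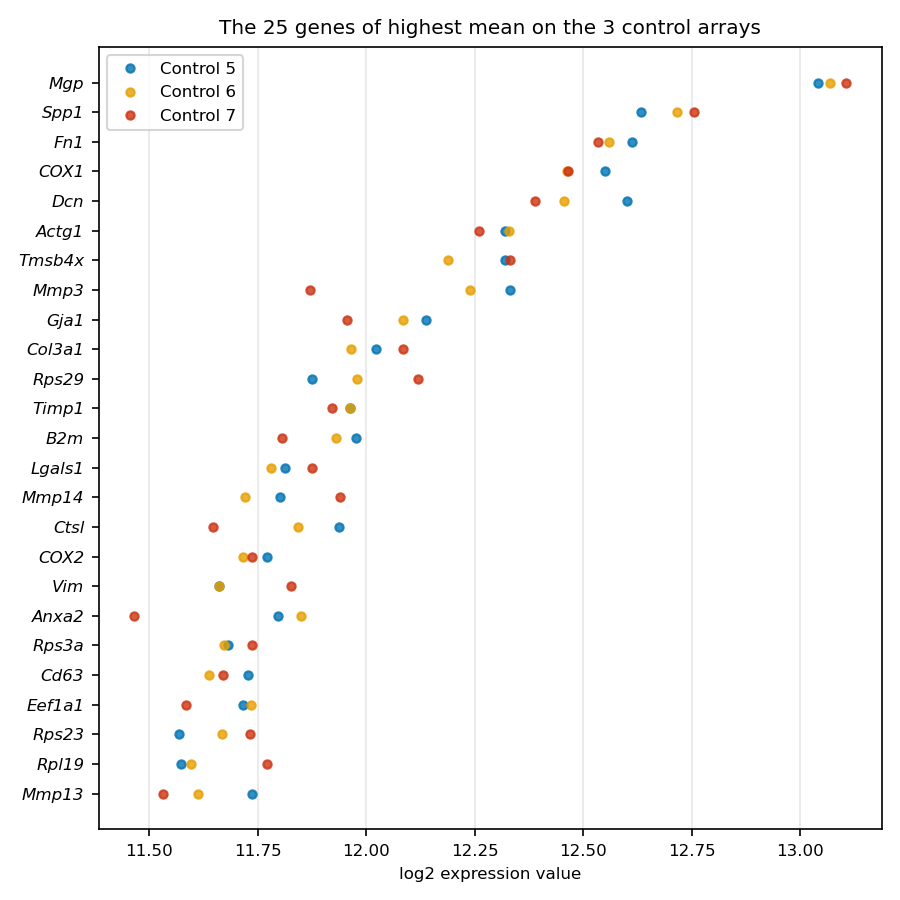
The 25 genes of highest mean log2 expression value on the 3 control arrays, by gene (vertical) and log2 value (horizontal), with 1 point per array. Mgp leads at 13.07, the 3 points of a gene mostly lie close together, and Mmp3, with a range of 0.46, is spread the widest of the genes drawn.

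The label of the spheres was then set against markers of each cell type of the gland. A list's count above the off-tissue level is read against the 64.4% of all genes. Of 16 measured pan-luminal genes 13 were above the off-tissue level, with Cd24 (a surface protein used to sort mammary epithelium) at 8.22 ± 0.29, the adhesion gene Epcam at 7.32 ± 0.85, E-cadherin (Cdh1) at 6.56 ± 0.74 and the luminal keratins Krt8, Krt18 and Krt19 at 6.22 ± 0.84, 6.16 ± 0.91 and 6.39 ± 0.96. The 3 that were not above it were the epithelial transcription factors Elf3 (3.33) and Ehf (2.42) and the mucin Muc1 (2.36). Of 18 basal and myoepithelial genes 12 (66.7%) were above it, a share near that of all genes. Vim, the EGF receptor gene Egfr and the tropomyosin gene Tpm2, which other cell types also make, were among the 12. So were the basal keratins Krt14 and Krt5, with means of 6.14 ± 0.84 and 5.24 ± 0.75, the laminin receptor Itga6 with 5.20 ± 0.54 and smooth muscle actin Acta2 with 5.84 ± 0.04. The 6 that were not above the level were the basal transcription factor Tp63, with 2.36, 2.88 and 2.99 on Control 5, 6 and 7, P-cadherin (Cdh3, 2.95), calponin (Cnn1, 2.46), the Notch ligand Jag2 (1.76), the oxytocin receptor Oxtr (1.23) and the stem cell receptor Lgr5 (1.10).

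Genes of the luminal progenitor, the cell from which milk-secreting cells arise, were above the off-tissue level for 10 of 13. Lcn2, the iron-trapping protein lipocalin, was the second brightest of the list at 9.98 ± 0.74, after the chemokine Cxcl1 at 10.77 ± 0.42. The retinaldehyde dehydrogenase Aldh1a3 had 7.74 ± 0.62, and Csn3, the casein that keeps milk micelles stable, 8.92 ± 0.99. Csn1s1, another casein, read 5.13, 6.70 and 6.43 on the 3 arrays. Milk and secretion genes counted 11 of 15 above the level, led by Spp1 and by Lpl, the lipase that takes up fatty acids, at 11.54 ± 0.15. Markers of the hormone-sensing luminal cell were mostly dim, with 3 of 11 above the level. Its defining receptors were not among the 3: Esr1 had a mean of 1.72 and Pgr one of 1.44, and the prolactin receptor Prlr read 2.52, 2.43 and 3.55. The 3 above it were Fxyd2, a regulator of the sodium pump, at 7.32 ± 0.42, the EGF receptor ligand Areg at 7.24 ± 0.62 and the membrane protein Prom1 at 6.21 ± 1.07.

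Fibroblast genes were the brightest of the lineage lists. All 15 measured members were above the off-tissue level, with a median of 8.47, against 5.92 for the pan-luminal list, 5.05 for the basal list and 4.89 over all 14217 genes. Postn, a matrix protein of activated fibroblasts, stood at 11.46 ± 0.06, Col1a2 at 11.40 ± 0.06 and the calcium-binding S100a4 at 10.97 ± 0.23. Several members of the fibroblast and basal lists, Vim and Col1a2 among them, can be made by more than 1 cell type, so the counts do not give cell shares.

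Vessel, macrophage and fat markers had list medians of 4.08, 3.03 and 3.86, lower than those of both epithelial layers. The endothelial list had 9 of 14 members (64.3%) above the level, the share of genes at large, led by the TGF-beta co-receptor Eng at 6.26 ± 0.20, with the junction protein Pecam1 at 3.70 ± 0.81 just over it. The macrophage list had 5 of 15, among them the lysosomal Cd68 at 7.66 ± 0.66, the lipopolysaccharide co-receptor Cd14 at 7.01 ± 0.40 and the pan-leukocyte Ptprc at 3.83 ± 0.29. Of 13 lymphocyte genes and of 5 erythroid genes, 0 were above it, and the T-cell kinase Lck, the brightest of the former, had a mean of 3.26. Adipocyte genes counted 6 of 11, with the fatty acid carrier Fabp4 at 4.18 ± 0.54. Pericyte genes counted 4 of 9, mast cell and granulocyte genes 3 of 9, Schwann cell genes 6 of 7, skeletal muscle genes 6 of 12 and stratified squamous genes 3 of 12. The squamous members above the level were Sfn, a 14-3-3 protein of epithelia, Krt10 and the desmosome protein Pkp1. In the muscle list, the myosin Myh1 had the highest mean at 7.04 ± 0.07, read from the brightest of its 5 probe sets. The next member, the filament gene Des, had 5.35 ± 0.37, and the actin gene Acta1 had 4.53 ± 0.64.

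**Figure D2:**
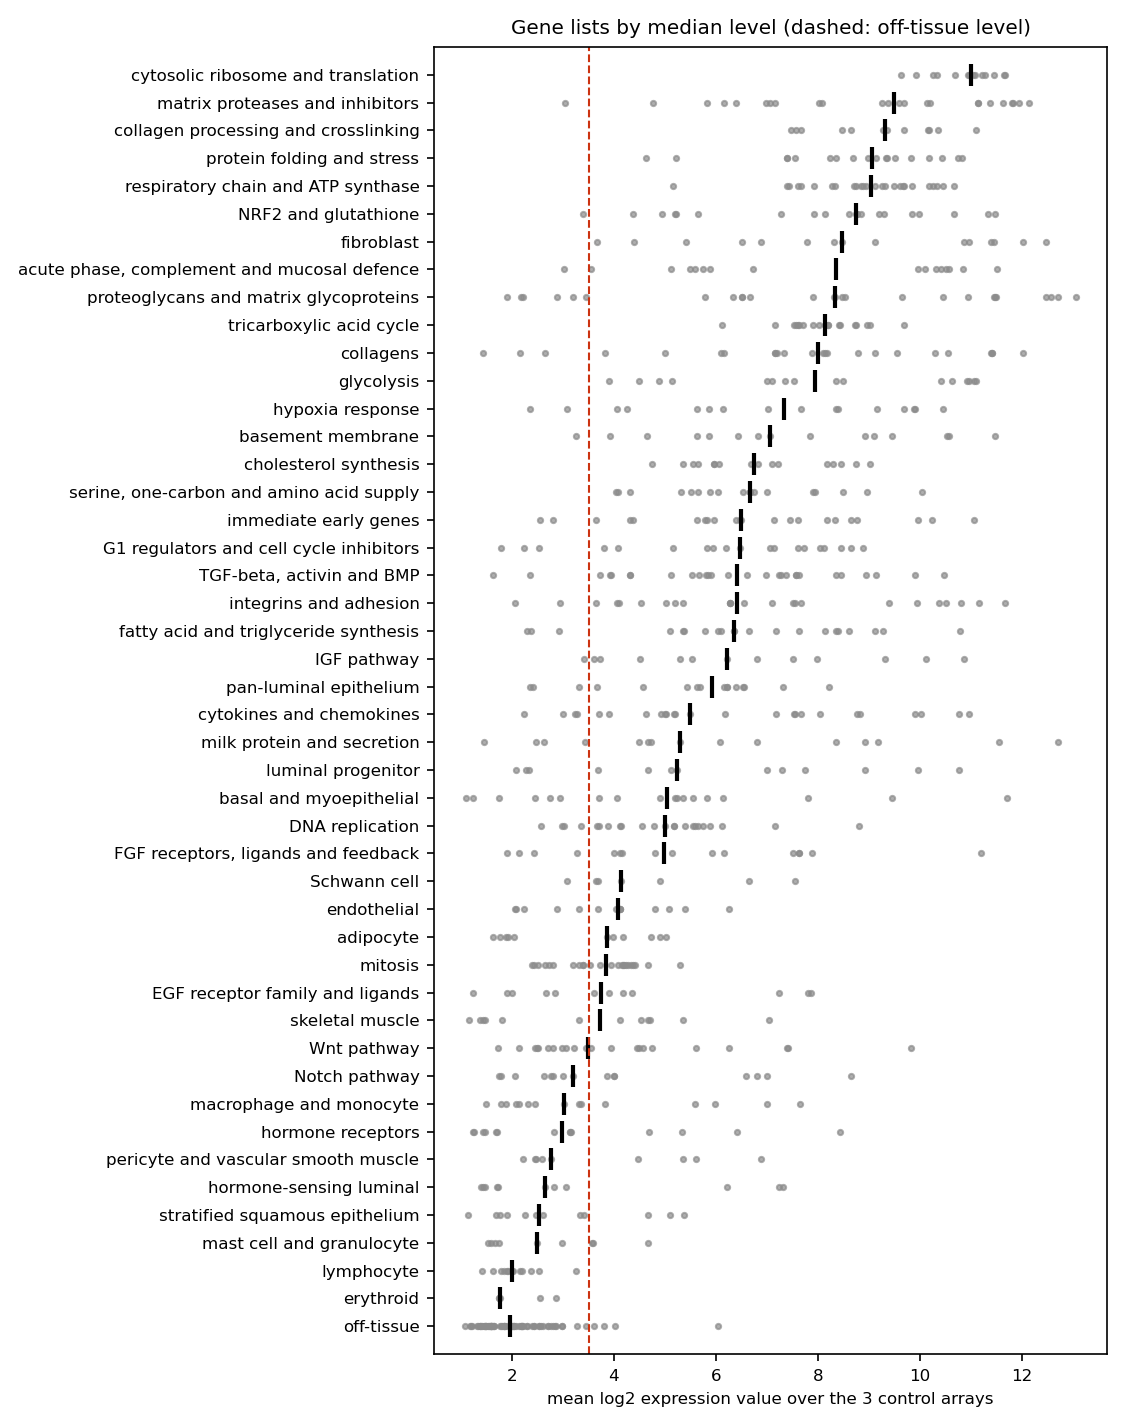
Mean log2 expression value over the 3 control arrays (horizontal) of each measured member of 46 gene lists (vertical, ordered by median), with a bar at each list's median and a dashed line at the off-tissue level of 3.53. Ribosomal, protease and collagen processing genes have the highest medians, and lymphocyte and erythroid genes lie wholly below the line.

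Most members of each matrix list were above background. Of 24 collagen genes 21 were above the off-tissue level. They included the fibrillar Col1a1 (9.13 ± 0.35) and Col5a2 (11.41 ± 0.09), the beaded-filament collagen Col6a3 (11.42 ± 0.14) and the basement membrane collagen Col4a1 (10.55 ± 0.11). The 3 below it were Col4a6 (2.66), the cartilage collagen Col2a1 (2.15) and Col4a4 (1.44). All 12 enzymes and chaperones of collagen processing were above it, among them the prolyl hydroxylase subunit P4hb at 11.11 ± 0.02, the crosslinking lysyl oxidase Lox at 10.36 ± 0.15 and the collagen chaperone Serpinh1 at 10.15 ± 0.12. None of these 12 ranged by 1 or more between arrays, which is near the 2.97% of all genes above the level that did.

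Basement membrane genes counted 14 of 15 above the level. The laminin chains Lamb1 and Lamc1 had means of 10.54 ± 0.03 and 9.46 ± 0.05 and the linker Nid1 one of 10.58 ± 0.10. Lama1 alone was not above it, at 3.26. Of 24 integrin and adhesion genes 22 were above it, with the common integrin chain Itgb1 at 10.51 ± 0.05, beta-catenin (Ctnnb1) at 11.17 ± 0.08 and the hyaluronan receptor Cd44 at 7.67 ± 0.36. Proteases and inhibitors counted 23 of 24, with a list median of 9.49. Beyond the metalloproteinases above, the lysosomal protease Ctsl had a mean of 11.81 ± 0.15. In the proteoglycan and glycoprotein list 20 of 26 were above the level, with Tnc, a matrix protein of growing and wounded tissue, at 11.49 ± 0.23 and the collagen-binding Sparc at 11.48 ± 0.11.

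Energy metabolism genes were above the off-tissue level throughout. This held for 16 of 16 glycolysis genes, 19 of 19 of the tricarboxylic acid cycle and 26 of 26 of the respiratory chain and ATP synthase. Lactate dehydrogenase Ldha had a mean of 10.96 ± 0.17, enolase Eno1 11.07 ± 0.13, malate dehydrogenase Mdh1 9.69 ± 0.03 and the ATP synthase subunit Atp5f1b 10.46 ± 0.06. The mitochondrially encoded cytochrome oxidase subunit COX1 was the fourth brightest gene at 12.49 ± 0.05. Between arrays the respiratory chain had a median range of 0.16 and the cycle genes one of 0.16. Of their 45 genes 0 ranged by 1 or more, near the 2.97% of all genes above the level that did. In glycolysis the hexokinase Hk2 was the 1 gene that did, with 3.87, 4.54 and 3.35 on Control 5, 6 and 7.

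Lipid and redox genes were likewise broadly expressed. Cholesterol synthesis counted 16 of 16 above the level, with the sterol methyl oxidase Msmo1 at 9.03 ± 0.24 and the sterol sensor Insig1 at 8.46 ± 0.39. Fatty acid and triglyceride synthesis counted 18 of 21, led by the desaturase Scd2 at 10.79 ± 0.25, with fatty acid synthase Fasn at 8.40 ± 0.05. Of 21 genes of glutathione and the NRF2 response, 20 were above it, with thioredoxin Txn1 at 11.48 ± 0.06 and the glutathione transferase Gstp1 at 11.33 ± 0.13. The cystine carrier Slc7a11, which feeds glutathione synthesis, read 6.43 on Control 5, 5.62 on Control 6 and 4.89 on Control 7, highest on Control 5 and lowest on Control 7. All 18 folding genes, 14 translation genes and 19 genes of serine, one-carbon and amino acid supply were above the level, with the endoplasmic reticulum chaperone Hspa5 at 10.83 ± 0.10 and the stress factor Atf4 at 10.04 ± 0.05. Hypoxia response genes counted 14 of 16, with the angiogenic ligand Vegfa at 9.89 ± 0.39 and the mitophagy receptor Bnip3 at 8.96, 8.52 and 7.69.

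The mitosis list lay close to the off-tissue level. Of its 24 genes 14 were above it and the list's median was 3.84. The proliferation marker Mki67 read 3.67, 4.24 and 4.35 on Control 5, 6 and 7, the mitotic kinase Cdk1 had a mean of 4.42 ± 0.31 and the anaphase activator Cdc20 one of 4.67 ± 0.42. DNA replication genes counted 19 of 23, with a median of 5.01, led by the sliding clamp Pcna at 8.81 ± 0.10 and the helicase subunit Mcm7 at 7.16 ± 0.23. Regulators of the G1 phase counted 16 of 19, with cyclin D1 (Ccnd1) at 8.04 ± 0.12, its partner kinase Cdk4 at 8.89 ± 0.05, Myc at 6.47 ± 0.16 and the inhibitor Cdkn1a at 8.65 ± 0.43. None of these 3 lists held a gene above the level that ranged by 1 or more. Of all genes above the level 2.97% did, so lists of this length would hold few or none.

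Receptors and feedback genes of the growth factors in the medium were among the genes above the level. The EGF receptor gene Egfr had a mean of 7.81 ± 0.14 and its feedback inhibitor Errfi1 one of 7.87 ± 0.14, while its partner Erbb2 stood at 4.18 ± 0.37. Of the EGF family list 7 of 12 (58.3%) were above the level, a share below the 64.4% of all genes. Fgfr1 read 7.52 ± 0.05 and Fgfr2 4.02 ± 0.07, and 12 of 16 genes of the FGF list were above it. Dusp6, a phosphatase that FGF signalling induces and that switches ERK off, was among the 100 brightest genes at 11.19 ± 0.07. In the insulin-like growth factor list 12 of 13 were above the level, led by the binding protein Igfbp5 at 10.86 ± 0.44.

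Immediate early genes, which respond to growth factors and stress within minutes, counted 20 of 22, with Ier3 at 11.06 ± 0.26, Egr2 at 10.24 ± 0.07 and Egr1 at 9.96 ± 0.13. Of 25 cytokine and chemokine genes 21 were above the level. Ccl2, which draws monocytes, had a mean of 10.96 ± 0.40, and the interleukin Il6 one of 10.03 ± 0.68. Defence genes counted 15 of 16, with the protease inhibitor Slpi at 10.58 ± 0.34 and the complement protease C1s at 10.43 ± 0.16. TGF-beta, activin and BMP genes counted 26 of 28, with the activin subunit Inhba at 9.90 ± 0.19 and its antagonist Fst at 9.15 ± 0.35.

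Of the Notch and Wnt genes, 7 of 15 and 11 of 22 were above the level, beside 64.4% of all genes. The receptor Notch1 had a mean of 7.01 ± 0.19, its nuclear partner Rbpj 8.65 ± 0.33, its target Hes1 6.81 ± 0.26 and its ligand Jag1 6.60 ± 0.35. The Wnt receptor Fzd1 stood at 9.82 ± 0.11 and the secreted antagonist Sfrp1 at 7.42 ± 0.38. Hormone receptors counted 4 of 14: the glucocorticoid receptor Nr3c1 at 8.43 ± 0.10, the thyroid hormone receptors Thrb at 6.41 ± 0.18 and Thra at 5.35 ± 0.19, and the retinoic acid receptor Rara at 4.69 ± 0.22. Lhcgr, the receptor that hCG binds, read 1.43, 1.43 and 1.53 on Control 5, 6 and 7, at the level of off-tissue genes.

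The 3 control arrays were alike for most genes. Over the 9159 genes above the off-tissue level the range, the highest minus the lowest of the 3 log2 values, had a median of 0.26, and the median SD was 0.14. Pearson's r across these genes, which are not independent replicates, was 0.991 between Control 5 and 6, 0.983 between 6 and 7 and 0.976 between 5 and 7. A difference of at least 1, a 2-fold change, separated Control 5 from 6 in 75 genes, Control 6 from 7 in 99 and Control 5 from 7 in 236. The 10 steadiest of the 500 brightest genes had ranges of at most 0.02. They included the chaperone Hsp90b1, the actin nucleation subunit Arpc1b, the trafficking GTPase Rab11a, the phospholipid-binding Anxa5 and the GTPase Rac1.

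A range of at least 1 was found in 272 genes, 2.97% of the 9159, called varying below. The range reached 2 or more in 15 of them. Without Control 5 the count was 101, and without Control 7 it was 71, each over 2 arrays, where a gene's range can only stay or shrink. Of the 272, 145 (53.3%) were lowest on Control 5, against 33.5% of all 9159 genes. A further count, 152 (55.9%) highest on Control 7, was near the 50.3% of all genes. The order Control 5 lowest, 6 between and 7 highest was held by 135 of the 272 (49.6%), against 25.5% of all 9159 genes. The opposite order was held by 71 of them (26.1%), against 17.5%. On the 3 hCG arrays, which the choice of these genes did not use, 1.88% of the 9159 genes had a range of at least 1, and 61 of the 272 (22.4%) did. The median range of the 272 was 1.29 on the control arrays, where the choice of these genes required at least 1. On the hCG arrays it was 0.56, against 0.17 for all 9159 genes. The 2 medians of the 272 therefore do not compare the spread of the groups. Measures of RNA quality moved between the control arrays too. The signal of Actb probe sets at the 3' end exceeded that at the 5' end by 1.65, 1.46 and 2.18 on Control 5, 6 and 7 and that of Gapdh by 0.22, 0.11 and 0.67, both highest on Control 7. Poly-A spikes averaged 5.43, 5.53 and 5.71. The part of these in the differences between arrays was not tested.

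**Figure D3:**
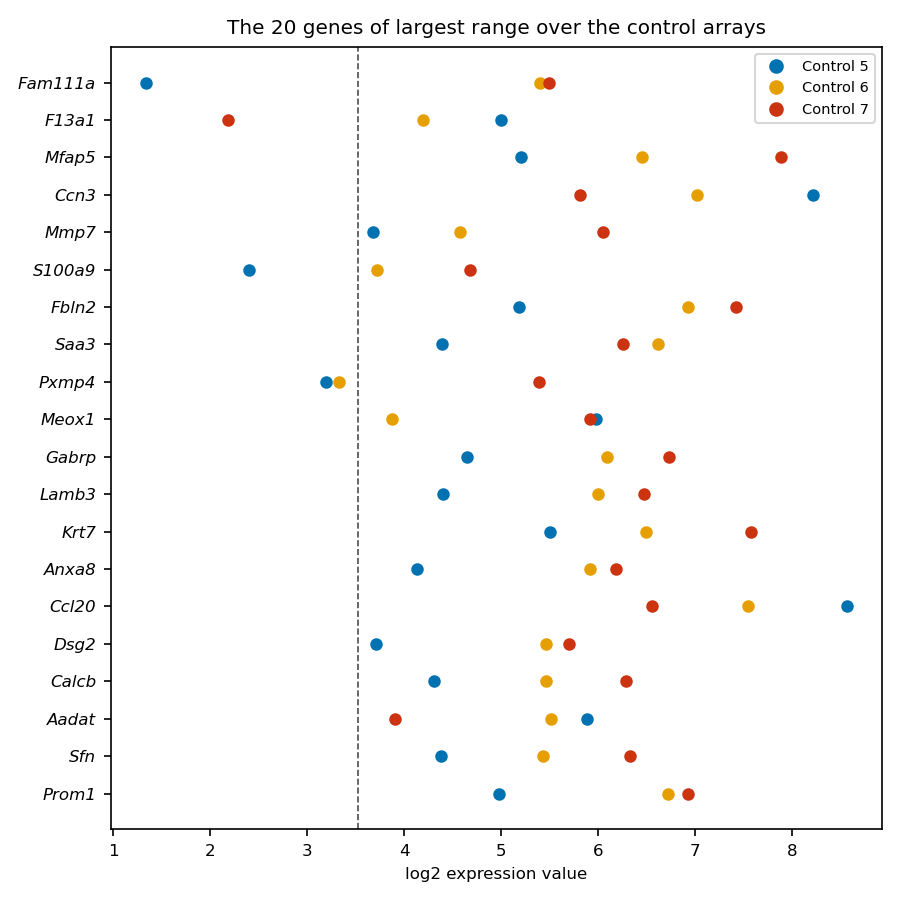
The 20 genes of largest range over the 3 control arrays (vertical) with the log2 expression value on each array (horizontal), 1 point per array and a dashed line at the off-tissue level of 3.53. Most have their lowest point on Control 5 and their highest on Control 7, and Ccn3, Ccl20, F13a1 and Aadat run the other way. The means of Pxmp4 and S100a9 passed the off-tissue level only through their values on Control 7.

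Pan-luminal genes had the largest share of varying members among the lists with a gene above the off-tissue level. Of the 13 pan-luminal genes above the off-tissue level, 12 (92.3%) varied, against 2.97% of all genes above it. All 13 were lowest on Control 5, against 33.5%. Krt7, a keratin of simple epithelium, read 5.50 on Control 5, 6.50 on Control 6 and 7.58 on Control 7, a 4.21-fold range. Krt19 read 5.40, 6.45 and 7.32, Krt18 5.29, 6.09 and 7.11 and Krt8 5.32, 6.36 and 6.98 in the same order of arrays. Each of these 4 luminal keratins was lowest on Control 5, between on Control 6 and highest on Control 7. Epcam read 6.36, 7.62 and 7.97 and Cdh1 5.71, 6.92 and 7.06, with Control 6 and 7 closer to each other than to Control 5. Cdh1's range dropped to 0.69 when its probe sets were averaged, since its second one was dim with a mean of 1.06. Cd24, the 1 that did not vary, read 8.04, 8.56 and 8.08. As a list the pan-luminal genes stood at -0.86 on Control 5, 0.17 on Control 6 and 0.68 on Control 7, each relative to the mean of the 3 arrays, a span of 1.54 that was 0.51 between Control 6 and 7 alone. Over all 9159 genes the same measure was -0.02, -0.02 and 0.03. In bulk RNA, fewer cells of a type and less RNA per cell cannot be told apart.

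The basal list had the same order of arrays as the luminal list. Of the 12 above the level 7 varied, against 2.97% of all genes above it. The order Control 5, 6, 7 from low to high was held by 9, against 25.5%. The list stood at -0.56, 0.11 and 0.45, with 0.35 between Control 6 and 7 alone. Krt14 read 5.19, 6.45 and 6.78, Krt5 4.39, 5.53 and 5.81 and Krt17, a keratin of basal and stressed epithelium, 4.55, 5.68 and 6.46. The hemidesmosome integrin Itgb4, which anchors basal cells to laminin, read 2.96, 4.48 and 4.79. Acta2, with 5.81, 5.81 and 5.89, and Vim, with 11.66, 11.66 and 11.83, were nearly level across the arrays although the same list holds them. Of 25 measured genes named as keratins 12 were above the level, beside 64.4% of all genes. Of these 12, 9 varied, against 2.97% of all genes above the level. Itga6, with 4.59, 5.41 and 5.59, had a range of 0.13 when its probe sets were averaged. Its other probe sets were dim, with means of 2.19, 2.11 and 2.02, below the off-tissue level. Of the keratins, the 3 that did not vary were Krt10, Krt86 and Krt33b, with means of 4.67, 4.50 and 3.94.

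**Figure D4:**
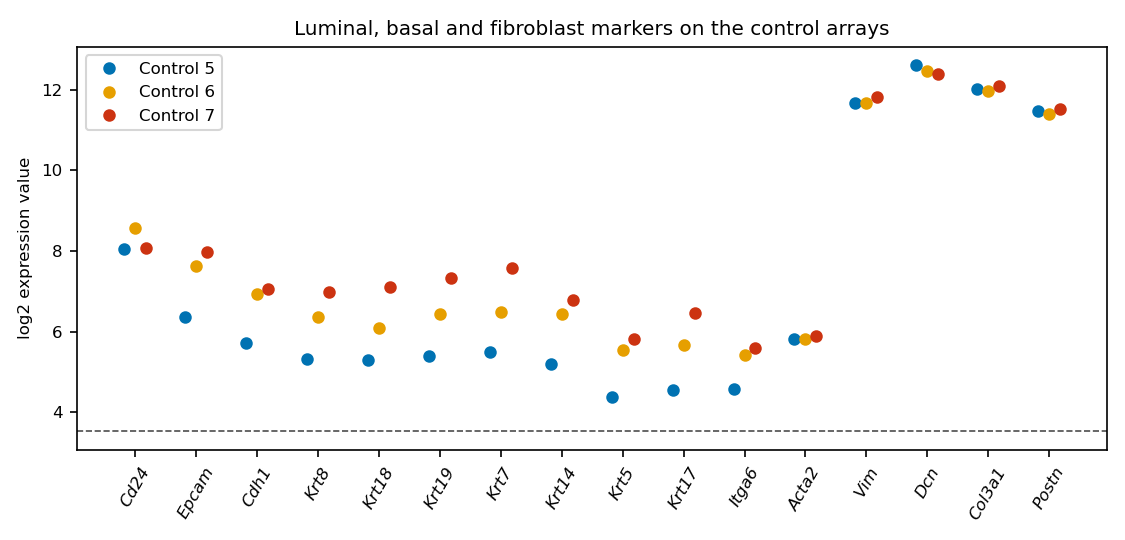
Log2 expression value (vertical) of luminal, basal and fibroblast marker genes (horizontal) on each of the 3 control arrays, with a dashed line at the off-tissue level of 3.53. Keratins, Epcam, Cdh1 and Itga6 are lowest on Control 5, while Acta2, Vim, Dcn, Col3a1 and Postn lie nearly level. Dcn, Col3a1 and Postn are steadier than the fibroblast list, whose median range was 0.46. Its members Mfap5, Pdgfrb and Fbn1, with ranges of 2.69, 0.86 and 0.69, are not drawn.

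Several other genes of epithelial structure and secretion were lowest on Control 5. Lamb3, a laminin chain of the epithelial basement membrane, read 4.40 on Control 5, 6.01 on Control 6 and 6.47 on Control 7. Dsg2, a desmosome cadherin, read 3.71, 5.47 and 5.70, the annexin Anxa8 4.14, 5.92 and 6.19 and the GABA receptor subunit Gabrp 4.65, 6.10 and 6.73. Mmp7 (matrilysin), a metalloproteinase made by glandular epithelium, read 3.68, 4.58 and 6.05. Luminal progenitor genes varied in 5 of 10, against 2.97% of all genes above the level, with the list at -0.50, 0.11 and 0.39. Lowest on Control 5 were 9 of the 10, against 33.5% of all genes. Cxcl1, the brightest of the 10, ran the other way with 11.21, 10.73 and 10.37. The 3 hormone-sensing genes above the level were not alike. Fxyd2, with 7.56, 7.55 and 6.84, and Areg, with 7.81, 7.32 and 6.58, were lowest on Control 7. Prom1, which the pan-luminal list also holds, was lowest on Control 5, with 4.98, 6.73 and 6.93. Csn3 read 7.79, 9.41 and 9.56 and Lcn2 9.22, 10.01 and 10.70. Csn3 was thus about level between Control 6 and 7, and Lcn2 was not. The acute phase gene Saa3 was lowest on Control 5 and highest on Control 6, with 4.40, 6.62 and 6.26. The neutrophil calcium-binding genes S100a8 and S100a9, which epithelia also make, read 3.78, 4.54 and 5.70 and 2.40, 3.72 and 4.68. S100a9 lay below the off-tissue level on Control 5, and its mean passed only with its value on Control 7. S100a9 therefore cannot count as a separate sign that Control 7 was high.

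Fibroblast genes did not share a direction. Their median range of 0.46 was above the 0.26 of all 9159 genes. Of the 15, 3 had the order Control 5, 6, 7 from low to high, against 25.5% of all genes. The opposite order was held by 4, against 17.5%, and 1 varied, against 2.97%. The list's mean stood at -0.09, -0.04 and 0.13, with 0.05 between Control 5 and 6 alone. The varying gene was Mfap5, a microfibril protein, with 5.20 on Control 5, 6.45 on Control 6 and 7.89 on Control 7, a 6.44-fold range. Fbln2, a basement membrane glycoprotein, went the same way with 5.18, 6.93 and 7.43. Dcn read 12.60, 12.46 and 12.39 and Postn 11.47, 11.39 and 11.51. Among 21 collagens 2 (9.52%) varied, against 2.97% of all genes above the level. They were Col6a2 with 7.09, 6.77 and 8.14 and Col7a1, the anchoring fibril collagen, with 7.18, 8.14 and 8.36. Endothelial genes varied in 4 of 9, against 2.97% of all genes above the level. Their list stood at -0.29, -0.20 and 0.48, so here Control 7 stood apart from the other arrays. Pecam1 read 3.13, 3.34 and 4.62, the VEGF receptor Kdr 3.50, 3.92 and 4.71 and the capillary protein Plvap 4.44, 4.42 and 5.58. Pecam1 lay below the off-tissue level on Control 5 and 6, and its mean passed only through its value on Control 7. It therefore cannot count as a separate sign that Control 7 was high. Kdr lay below the level on Control 5. Plvap and Emcn, which read 4.60, 4.91 and 5.71, lay above it on every control array. The range of Kdr was 0.63 when its probe sets were averaged, since its second one was dim and level at 1.89, 1.98 and 1.92.

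**Figure D5:**
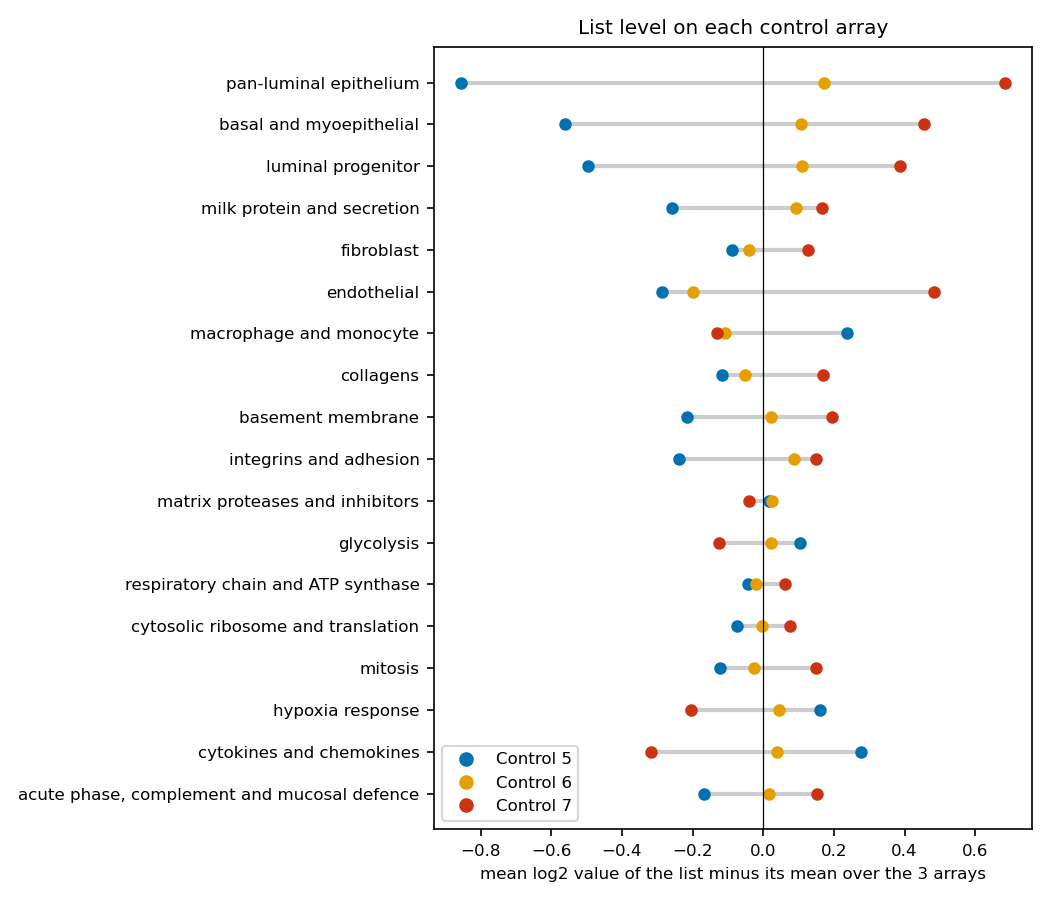
Level of 18 gene lists on each control array, as the mean log2 value of the members above the off-tissue level minus the same mean over the 3 arrays (horizontal), with 1 point per array. The pan-luminal list spans 1.54 and the basal list 1.01, the fibroblast list spans 0.22, and cytokines and hypoxia response genes run the opposite way with Control 5 highest.

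Inflammatory genes did not all run 1 way. The acute phase, complement and mucosal defence list stood at -0.17, 0.02 and 0.15 on Control 5, 6 and 7, the order of the epithelial lists. Cytokines and chemokines ran the opposite way as a list, at 0.28, 0.04 and -0.32. Of the 21 above the level 6 varied, against 2.97% of all genes, and 10 had the order with Control 5 highest and Control 7 lowest, against 17.5%. Its span of 0.60 was 0.24 between Control 5 and 6 alone. Ccl20, which draws dendritic cells and lymphocytes, read 8.57 on Control 5, 7.55 on Control 6 and 6.56 on Control 7, a 4.04-fold range. Cxcl2, which draws neutrophils, read 9.75, 8.72 and 7.86, Il6 10.65, 10.12 and 9.31 and Lif, a cytokine of the Il6 family, 4.30, 4.51 and 2.90. All 4 were lowest on Control 7. Serpinb2, an inhibitor of plasminogen activators, read 7.75, 7.49 and 5.96, and Ccn3, a matricellular protein, 8.22, 7.02 and 5.81. The macrophage list stood at 0.24, -0.11 and -0.13, and its 5 members above the level were not alike. Cd68, with 8.42, 7.25 and 7.31, the lysozyme gene Lyz2, with 6.12, 5.42 and 5.26, and Ptprc, with 4.13, 3.81 and 3.55, were highest on Control 5. Cd14, which the luminal progenitor list also holds, was lowest there, with 6.60, 7.38 and 7.05. The protease gene Ctss was highest on Control 7, with 6.01, 5.68 and 6.25. Hypoxia response genes stood at 0.16, 0.05 and -0.21, and 10 of 14 had the order with Control 5 highest and Control 7 lowest, against 17.5% of all genes.

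Among the 500 brightest genes 8 varied, a smaller share than the 2.97% of all genes above the level. Ptgs2, the inducible cyclooxygenase of prostaglandin synthesis, read 11.10 on Control 5, 10.60 on Control 6 and 9.87 on Control 7, and Il6 followed the same order. The others were Cpxm1, Lcn2, the organic cation exporter Slc47a1, the metalloproteinase inhibitor Reck, the B-cell chemokine Cxcl13 and the transcriptional regulator Cited2. Reck read 10.11, 10.02 and 8.40 and Cxcl13 9.84, 9.97 and 8.32, each low on Control 7 alone. Cpxm1, with 10.98, 9.86 and 10.82, was lowest on Control 6.

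Promoter sequences were looked at for both orders of varying genes. They were taken from RefSeq on the rat assembly GRCr8 as the 250 bases before each annotated start. The heptamer TGANTCA was searched on both strands, where it reads the same. Its forms TGACTCA and TGAGTCA are the site of AP-1 (Fos and Jun dimers). N stood for any base, so the shares below count other forms too and are not shares of AP-1 sites. The heptamer was found in 6.39% of all 27457 promoters of this length and in 4.51% of the 7691 promoters of genes above the off-tissue level. Of varying genes with a promoter, it was found in 13 of 100 (13.0%) with Control 5 lowest and Control 7 highest, and in 7 of 53 (13.2%) with the opposite order. The shares of both sets were thus alike and above those of all genes. The difference was not tested, and a match is not a bound site. The GC box GGGCGG was found in 61.3% of genes above the level, in 56.0% of the first set and in 41.5% of the second, and the TATA box TATAAA in 6.06%, 12.0% and 17.0%. The NF-kB type GGANTTTCC (1.18%, 0.00% and 1.89%) and the Grainyhead-like type AACCNGTT (1.29%, 0.00% and 1.89%) were rare in all.

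Below are the promoters of the listed genes of largest range that hold the heptamer, 2 from each order, shown because they let the match be seen in genes of opposite order. Mmp7 and Sfn (epithelial) had their highest value on Control 7, and Serpinb2 and the monocyte chemokine Ccl7, which read 8.26, 7.71 and 7.01, their highest on Control 5. Sfn read 4.39, 5.44 and 6.33. Capitals mark the heptamer, all on the gene's own strand, and each sequence runs 5′ to 3′ up to the base before the start. The Mmp7 sequence is chr8:13132793-13133042 on the plus strand, that of Sfn chr5:151111855-151112104 on the minus strand, that of Serpinb2 chr13:24055771-24056020 on the plus strand and that of Ccl7 chr10:67513845-67514094 on the plus strand.
Mmp7: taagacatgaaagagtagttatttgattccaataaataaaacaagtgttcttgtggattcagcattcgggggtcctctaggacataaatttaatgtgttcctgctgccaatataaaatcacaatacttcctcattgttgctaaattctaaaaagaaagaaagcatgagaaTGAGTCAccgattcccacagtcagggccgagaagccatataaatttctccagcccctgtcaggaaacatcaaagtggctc
Sfn: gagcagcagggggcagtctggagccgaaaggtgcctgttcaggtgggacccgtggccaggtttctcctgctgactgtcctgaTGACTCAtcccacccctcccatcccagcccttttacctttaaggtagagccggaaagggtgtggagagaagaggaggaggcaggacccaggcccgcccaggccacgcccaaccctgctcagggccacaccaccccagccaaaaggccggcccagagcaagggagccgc
Serpinb2: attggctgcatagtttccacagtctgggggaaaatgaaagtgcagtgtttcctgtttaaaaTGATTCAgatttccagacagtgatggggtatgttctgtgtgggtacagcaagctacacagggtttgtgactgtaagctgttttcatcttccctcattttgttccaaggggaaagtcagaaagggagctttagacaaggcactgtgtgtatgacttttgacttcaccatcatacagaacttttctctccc
Ccl7: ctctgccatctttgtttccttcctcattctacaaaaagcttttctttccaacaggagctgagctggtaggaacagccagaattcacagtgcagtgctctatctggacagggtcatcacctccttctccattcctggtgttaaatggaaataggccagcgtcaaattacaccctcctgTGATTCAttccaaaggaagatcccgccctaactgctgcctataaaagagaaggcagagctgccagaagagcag
The heptamer begins 80 bases before the start in Mmp7, 168 in Sfn, 189 in Serpinb2 and 73 in Ccl7. Its form is TGAGTCA in Mmp7 and TGACTCA in Sfn, but TGATTCA in Serpinb2 and Ccl7. The 2 promoters of the second order thus hold a form other than the AP-1 site.

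The hCG arrays, beside the ranges of the 272 varying genes, were used for the order of signal and the spans of the lists. Of the 100 brightest control genes 85 were also among the 100 brightest of the hCG arrays. The pan-luminal list, which spanned 1.54 over the control arrays, spanned 0.29 over the hCG arrays, and the basal list spanned 1.01 and 0.15. The cytokine list spanned 0.60 and 0.62. Other lists spanned more over the hCG arrays, with 0.88 and 1.14 for luminal progenitor genes, 0.42 and 0.95 for milk and secretion genes and 0.37 and 0.76 for the hypoxia response. No difference between the groups was tested.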

How the data were processed

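The authors deposited expression values from Affymetrix 3' arrays, read here as log2, of which the control columns are described. No source used here states how that table was scaled. The range from 0.74 to 13.1 and array medians of 3.46, 3.48 and 3.46 on Control 5, 6 and 7 led to their being read as log2, already normalized between arrays, which would hide a change shared by most genes. RMA (which gives normalized log2 values), MAS5 and limma are named in the submitters' processing notes, without versions and without saying which made the table. Depth has no meaning here: the number of arrays limits the precision.

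Affymetrix's own 57 control probe sets served only as quality measures. Of 31042 others, 20826 named 1 gene, 436 several and 9780 none in the platform annotation. Symbols of 20758 were updated through RefSeq (GRCr8, names and promoters) and 68 kept. The brightest probe set by mean over the control arrays stood for a gene. A list's level is the mean, over members above the off-tissue level, of each value minus its 3-array mean. The 46 gene lists, with the off-tissue list of 80 genes (72 measured), held 888 distinct genes, of which 788 were measured. All members and lists were chosen with earlier results of these data known. Genes named are the 25 brightest, the 20 of largest range, the 10 of smallest range among the 500 brightest, in each list the 5 brightest and the 3 of largest range, and 30 fixed genes; others were named after their values were seen. No test between groups was made. The range measure was tested on simulated data. Alternatives were quantile normalization, median centring, probe set means, other background levels and range limits, no filter, the median of arrays, and leaving out each array. Pseudocounts did not apply to log2 values. Columns without a sample numbered 0. Python 3.11.15, pandas 2.3.3, numpy 2.4.6 and matplotlib 3.10.9 were used.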

Additional observations from a re-analysis of the deposited data

How the results depend on the processing

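The count of 9159 genes above background stayed between 7931 and 9924 under every alternative run. In place of 272 varying genes, a limit of 1.5-fold gave 1062 and one of 4-fold 15. Leaving out 1 array gave 71 to 235 genes, with 71 without Control 7 and 101 without Control 5. A range over 2 arrays cannot exceed the same gene's range over 3, so part of this fall is built in. The same holds for the span of a list with the same members. Averaging probe sets left 216 of the 272 varying, quantile normalization 267 and median centring 270. Leaving out 1 array, the span between arrays ran from 0.513 to 1.55 for the pan-luminal list, with 0.513 without Control 5, from 0.349 to 1.01 for the basal list, with 0.349 without Control 5, from 0.049 to 0.215 for the fibroblast list, with 0.049 without Control 7, and from 0.238 to 0.597 for cytokines, with 0.238 without Control 7. The 100 brightest genes kept 81 under probe set means and 93 to 98 without 1 array. With 3 single arrays, a range has no error of its own, and dim genes lie near the noise of the platform. No paired analysis was possible because no result comes from a test between groups.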

Other observations

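Some genes differed on a single control array, which was looked at after their values were known. In 17 genes the range was at least 1.5 while 2 of the arrays lay within 0.25 of each other. Fam111a, a protease gene of DNA replication, read 1.34, 5.40 and 5.50 on Control 5, 6 and 7 and 5.33, 5.83 and 5.48 on the hCG arrays, so 1 of the 6 arrays was low. Meox1, a homeobox gene, read 5.98, 3.88 and 5.92, low on Control 6 alone. Pxmp4, a peroxisomal membrane gene, read 3.19, 3.33 and 5.39, high on Control 7 alone, and its second probe set read 2.85, 2.93 and 3.53. On Control 5 and 6 Pxmp4 lay below the off-tissue level, and its mean passed only through its value on Control 7. Its place among these genes is therefore no separate sign that Control 7 was high. Of 33 varying genes with a second probe set above background, the second also varied in 16 and had the opposite sign in 3.

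F13a1, the coagulation factor subunit that macrophages also carry, read 5.00, 4.20 and 2.18, and Aadat, an enzyme of lysine and kynurenine breakdown, 5.88, 5.51 and 3.91, both lowest on Control 7.

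Probe sets with no gene name held signal as well. Of the 9780, 3034 (31.0%) were above background on the control arrays, 138 of these (4.55%) ranged by at least 1, and 20 were brighter than the 100th gene, the brightest with a mean of 12.0.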
